A study of Mus musculus with 9 samples.

Results

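The genes described are the 7 subunits of AMP-activated protein kinase (AMPK) and Stk11, which encodes LKB1, the main kinase that activates it. They were taken from the table by gene symbol and make up 8 of its 18062 genes. RNA was sequenced from white gastrocnemius, the part of this calf muscle rich in fast glycolytic fibres. The 5 knock-out libraries, here ko1 to ko5, came from mice at 5 months of age in which exon 6 of Gaa was disrupted by targeting, with loxP sites in the flanking introns. Gaa encodes acid alpha-glucosidase, the enzyme that degrades glycogen in lysosomes, and mice without it model Pompe disease. The 4 wild-type libraries, wt1 to wt4, came from 2 samples at 5 months and 2 at 6 months. Since the names of their columns do not give the age, all 4 were treated as a single arm. Although 2 wild-type samples share the age of the knock-out, the part of age in the results could therefore not be separated from genotype here. The labels describe the strain of all samples as mixed background (BL6/129j), and the colony as kept by brother-sister mating for over 20 generations. They number the libraries but name no mice, so the p-values measure the spread between libraries.

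Values are RPKM, reads scaled to transcript length and library size, summed per gene, so levels of different genes can be compared. Gaa, the targeted gene, had 3.11 to 3.64 RPKM in the knock-out and 46.0 to 56.0 RPKM in the wild type, and all 9 libraries had the level their label calls for (exact two-sided permutation p = 0.0079, the smallest possible with 126 splits). Reads from exons outside the disrupted one may remain. Estimated depth was 17.6 to 37.5 mega-reads (M reads) in the knock-out and 37.1 to 64.5 M reads in the wild type, and the part of depth in the results was not tested. Markers of fast fibres were abundant in every library, with a summed level of 83162 to 95505 RPKM in the knock-out and 83540 to 90038 RPKM in the wild type. The wild-type libraries fell into pairs: the chi-square per gene between estimated reads was 4.27 for wt1 and wt2 and 3.83 for wt3 and wt4, but 10.7 to 12.9 across these pairs, against 2.85 to 6.11 between knock-out libraries. Whether the pairs are the ages cannot be told from the column names. For some of the results that move with these pairs, the difference or call without a pair is given. Marker sums are given over all 4 wild-type libraries only. No source used here gives a batch for any library, so a batch that follows genotype cannot be told apart from it.

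AMPK is a sensor of cellular energy that is built from a catalytic alpha subunit, a scaffolding beta subunit and a gamma subunit that binds adenine nucleotides. When AMP and ADP rise, the complex is held in its active form and LKB1 phosphorylates the activation loop of alpha. The beta subunits carry a carbohydrate-binding module through which the complex binds glycogen, and a pool of AMPK is activated at the lysosomal surface. Muscle fibres use alpha2 and beta2 for much of their AMPK, gamma3 is typical of white glycolytic muscle, and inherited variants of the gamma2 and gamma3 genes cause glycogen storage in heart and in skeletal muscle.

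The sequences below are the RefSeq promoters of the genes of the nucleotide-binding subunits that moved most in opposite directions, Prkag2 and Prkag3. Each runs from 250 bases before to 50 bases after an annotated start, in assembly GRCm38.p6, 5′ to 3′ on the gene's strand. Capitals mark matches to the E-box CANNTG, the general motif of basic helix-loop-helix factors. Prkag2 is shown at an inner start (chr5:24908460-24908759, minus strand) and at an outer start 192 kb upstream of it (chr5:25100593-25100892, minus strand), because the table holds transcripts from both. Prkag3 is shown at chr1:74748906-74749205, minus strand.
Prkag2, inner start: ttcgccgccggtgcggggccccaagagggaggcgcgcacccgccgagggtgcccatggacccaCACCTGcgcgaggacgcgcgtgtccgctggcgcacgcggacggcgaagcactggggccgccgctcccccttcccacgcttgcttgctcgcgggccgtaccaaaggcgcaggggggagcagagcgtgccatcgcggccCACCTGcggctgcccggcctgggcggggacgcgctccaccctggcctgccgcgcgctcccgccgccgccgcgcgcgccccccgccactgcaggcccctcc
Prkag2, outer start: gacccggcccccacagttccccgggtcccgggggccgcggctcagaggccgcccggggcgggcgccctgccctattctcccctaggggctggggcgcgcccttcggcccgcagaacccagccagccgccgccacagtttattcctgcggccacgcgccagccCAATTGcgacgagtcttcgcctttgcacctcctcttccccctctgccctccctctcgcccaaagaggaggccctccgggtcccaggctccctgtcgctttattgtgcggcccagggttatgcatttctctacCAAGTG
Prkag3: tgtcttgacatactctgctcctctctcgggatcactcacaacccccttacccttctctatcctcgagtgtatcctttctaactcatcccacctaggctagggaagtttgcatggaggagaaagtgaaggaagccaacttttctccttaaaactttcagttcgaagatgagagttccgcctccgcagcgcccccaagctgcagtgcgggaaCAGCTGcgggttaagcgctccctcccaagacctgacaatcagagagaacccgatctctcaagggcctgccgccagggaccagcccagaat

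Both Prkag2 promoters shown were rich in G and C, 79.3% at the inner and 69.7% at the outer start. Prkag3 had 54.0%, and the median over the 32851 promoters of the table was 52.7%. Each of the 2 Prkag2 promoters shown held 2 E-boxes, and Prkag3 held 1, which is of the form CAGCTG. Over all promoters of this length, 72.3% hold a CANNTG and 16.3% a CAGCTG, a form of it that reads the same on either strand. The GC box GGGCGG, searched on both strands, was found once at the inner Prkag2 start and at 2 places at the outer start, and not in the Prkag3 window. It occurs in 35.7% of all promoters. Another Prkag2 entry, at a start between the 2 shown, is not printed and differed from them. It had 50.3% G and C, 3 E-boxes and no GC box. All 8 genes had a RefSeq entry, 10 entries in all, and none of these windows held the E-box form CACGTG (7.15% of all promoters) or the TATA-like letters TATAAA (13.6%). Prkaa1 had the highest GC content, 82.0%, with 5 GC boxes, and Prkab2 also had 5 GC boxes. A match is a description of letters, not a bound site, and its absence says only that the letters are not in the window.

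All 8 genes passed the filter on low values, with group means of at least 2.02 RPKM in either genotype. In the knock-out 4 of the 8 rose, where 37.0% of the 11032 genes tested rose, and 3 fell, where 14.8% fell (limma on log2(RPKM + 0.1), Benjamini-Hochberg adjusted p below 0.05 over all genes). Stk11 did not pass the test. In both directions together 7 of the 8 were called, where 51.8% of all genes were. Within each subunit class 1 isoform fell and the others rose: Prkaa2, Prkab2 and Prkag3, the isoforms that were most abundant in the wild type, fell, and Prkaa1, Prkab1, Prkag1 and Prkag2 rose. The rise of Prkab1 is not secure: its groups overlapped, and its call was lost in 10 of 20 alternative analyses. The 5 knock-out values did not overlap the 4 wild-type values for 6 of the 8, where 42.4% of all genes tested did not. Of these 3 lay all above, where 30.9% of genes did, and 3 all below, where 11.4% did.

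**Figure D1:**
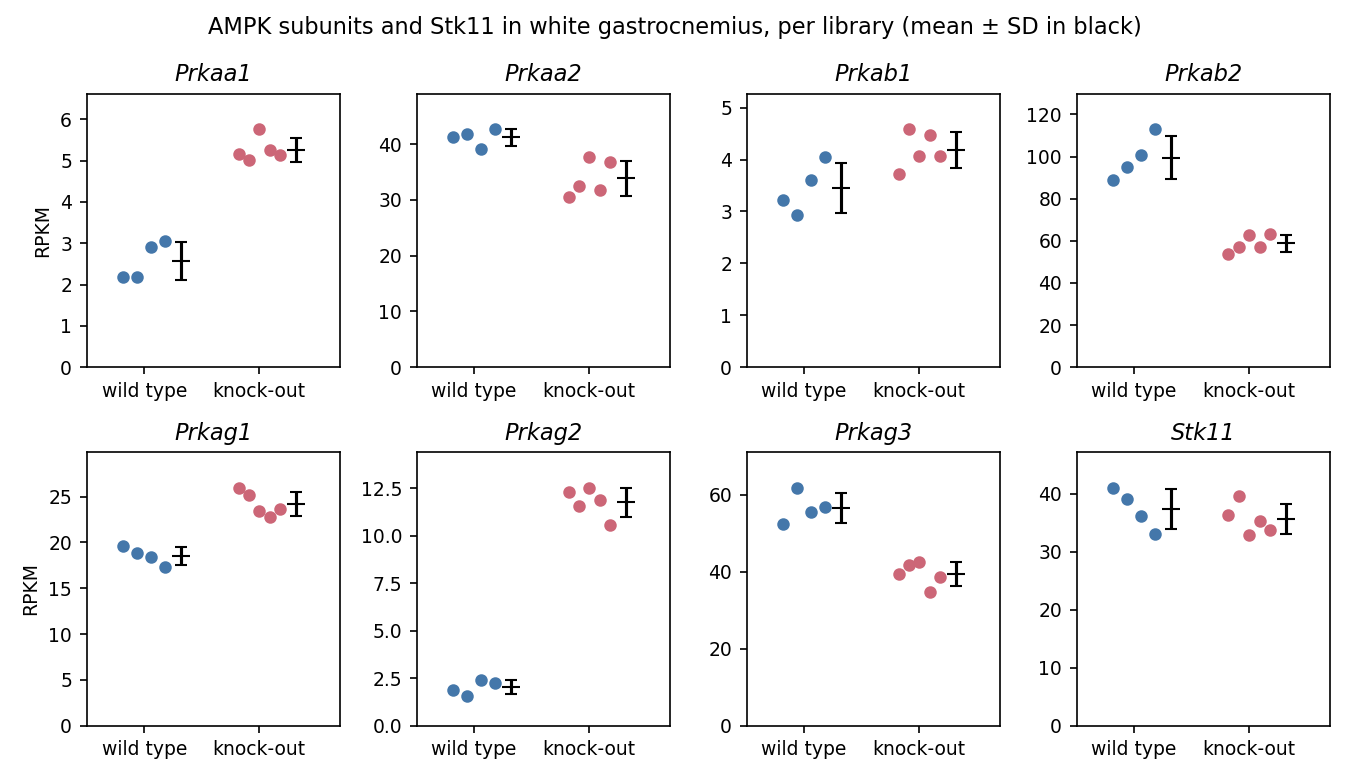
RPKM of each AMPK subunit and of Stk11 in every library, with knock-out in red, wild type in blue and the mean ± SD in black. The 5 knock-out values of Prkag2 lie between 10.6 and 12.5 RPKM, far above the wild-type values of 1.58 to 2.38 RPKM, and the groups overlap for Prkab1 and Stk11.

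Among the catalytic subunits, Prkaa1 (alpha1, the form widespread across tissues) rose and Prkaa2 (alpha2, the form typical of muscle fibres) fell. Prkaa1 was at 5.16, 5.02, 5.76, 5.25 and 5.14 RPKM in ko1 to ko5 and at 2.18, 2.18, 2.91 and 3.04 RPKM in wt1 to wt4. Every knock-out value was above every wild-type value, and wt1 and wt2 were lower than wt3 and wt4. The means were 5.27 ± 0.289 (SD, n = 5) and 2.58 ± 0.461 (SD, n = 4), a log2 difference of 1.02 (SE 0.11, 95% interval 0.79 to 1.25, limma adjusted p = 1.2e-05) or 2.02-fold. It ranked 523 from the highest difference among the 11032 genes tested. The difference was 0.80 on the log2 scale without wt1 and wt2 and 1.23 without wt3 and wt4.

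Prkaa2 was at 30.5, 32.5, 37.7, 31.8 and 36.7 RPKM in ko1 to ko5 and at 41.2, 41.8, 39.1 and 42.7 RPKM in wt1 to wt4. Every knock-out value was below every wild-type value, although ko3 came within 1.44 RPKM of wt3. Its means were 33.8 ± 3.17 (SD, n = 5) and 41.2 ± 1.5 (SD, n = 4), a log2 difference of -0.29 (SE 0.07, 95% interval -0.44 to -0.14, limma adjusted p = 0.0043). With a trend over transcript length removed from each library the difference was -0.14 and remained past the threshold (adjusted p = 0.047).

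Sums, shares and ratios are given as mean ± SD over the 5 knock-out and 4 wild-type libraries, with no test. The sum of both alpha genes was 39.1 ± 3.36 RPKM in the knock-out and 43.8 ± 1.52 RPKM in the wild type, with ranges of 35.7 to 43.5 and 42.0 to 45.7 that overlapped. Prkaa1 supplied 13.5% ± 0.858 of that sum in knock-out libraries (12.3% to 14.5%) and 5.89% ± 1.04 in wild-type libraries (4.96% to 6.91%). Prkaa2 therefore remained the main alpha transcript in all 9 libraries, at 85.5% or more.

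The beta subunits, which hold the complex together and carry the glycogen-binding module, differed in total as well as in makeup. Prkab2 (beta2, the main form of muscle) was at 53.8, 57.1, 62.6, 57.0 and 63.0 RPKM in ko1 to ko5 and at 88.9, 95.2, 101 and 113 RPKM in wt1 to wt4. The highest knock-out value lay 25.8 RPKM below the lowest wild-type value. The means were 58.7 ± 3.98 (SD, n = 5) and 99.5 ± 10.2 (SD, n = 4), a log2 difference of -0.76 (SE 0.07, 95% interval -0.92 to -0.59, limma adjusted p = 7.7e-06), so the wild-type level was 1.69-fold higher. It ranked 320 from the lowest difference among all genes tested. Its level was lower in wt1 and wt2 than in wt3 and wt4, and Prkab2 was called lower without either pair.

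Prkab1 (beta1, the form typical of liver) was at 3.71, 4.59, 4.07, 4.47 and 4.07 RPKM in ko1 to ko5 and at 3.23, 2.93, 3.60 and 4.06 RPKM in wt1 to wt4. The groups overlapped, since wt4 lay above ko1. The means were 4.18 ± 0.351 (SD, n = 5) and 3.46 ± 0.486 (SD, n = 4), a log2 difference of 0.27 (SE 0.10, 95% interval 0.06 to 0.49, limma adjusted p = 0.035). This call rests on single libraries: it was lost without ko2 (0.24, adjusted p = 0.075), ko4 (0.25, 0.074), ko5 (0.28, 0.053), wt1 (0.25, 0.088) or wt2 (0.20, 0.11), and Prkab1 was at 0.15 (adjusted p = 0.17) with the libraries centred on their medians.

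Summed, the beta genes were at 62.9 ± 4.01 RPKM in the knock-out (57.5 to 67.1) and 102.9 ± 10.7 RPKM in the wild type (92.1 to 117), with no overlap. The ratio of summed beta to summed alpha was 1.61 ± 0.0483 in knock-out libraries against 2.35 ± 0.206 in wild-type libraries, also without overlap. Prkab1 supplied 6.66% ± 0.649 of the beta sum in knock-out libraries and 3.35% ± 0.245 in wild-type libraries, so Prkab2 made up at least 92.6% in every library.

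The gamma subunits, which bind AMP, ADP and ATP, had the largest difference among the 8 genes. Prkag2 (gamma2) was at 12.3, 11.5, 12.5, 11.9 and 10.6 RPKM in ko1 to ko5 and at 1.88, 1.58, 2.38 and 2.25 RPKM in wt1 to wt4. Every knock-out value exceeded the highest wild-type value by at least 8.19 RPKM. The means were 11.8 ± 0.760 (SD, n = 5) and 2.02 ± 0.363 (SD, n = 4), a log2 difference of 2.50 (SE 0.11, 95% interval 2.26 to 2.73, limma adjusted p = 8.4e-09) or 5.64-fold. It ranked 60 from the highest difference among all genes tested. Its level was lower in wt1 and wt2 than in wt3 and wt4, and Prkag2 was called higher without either pair. Its wild-type level rested on the fewest reads of the set, an estimated 140 in the lowest library, for which counting alone gives an error of 8.45%.

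Prkag3 (gamma3, the form characteristic of white muscle) was at 39.4, 41.7, 42.6, 34.7 and 38.7 RPKM in ko1 to ko5 and at 52.3, 61.8, 55.5 and 56.7 RPKM in wt1 to wt4. The knock-out values all lay below the wild-type values. The means were 39.4 ± 3.10 (SD, n = 5) and 56.6 ± 3.95 (SD, n = 4), a log2 difference of -0.52 (SE 0.07, 95% interval -0.67 to -0.37, limma adjusted p = 7.5e-05).

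Prkag1 (gamma1, the widespread form) was at 26.0, 25.2, 23.4, 22.7 and 23.7 RPKM in ko1 to ko5 and at 19.6, 18.9, 18.4 and 17.3 RPKM in wt1 to wt4. Here too the groups did not overlap, with the knock-out above. The means were 24.2 ± 1.34 (SD, n = 5) and 18.5 ± 0.987 (SD, n = 4), a log2 difference of 0.38 (SE 0.06, 95% interval 0.26 to 0.51, limma adjusted p = 1.9e-04).

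The 3 gamma genes together were at 75.4 ± 4.12 RPKM in the knock-out and 77.2 ± 3.60 RPKM in the wild type, and these sums overlapped (69.3 to 78.6 and 73.8 to 82.3). Their makeup did not overlap for any of the 3. Prkag3 supplied 52.2% ± 1.77 of the gamma sum in knock-out libraries and 73.3% ± 1.89 in wild-type libraries. Prkag1 supplied 32.1% ± 1.38 and 24.1% ± 1.79, and Prkag2 supplied 15.6% ± 1.06 and 2.63% ± 0.533. The ratio of Prkag3 to Prkag2 was 3.36 ± 0.304 in knock-out libraries and 28.9 ± 7.05 in wild-type libraries.

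**Figure D2:**
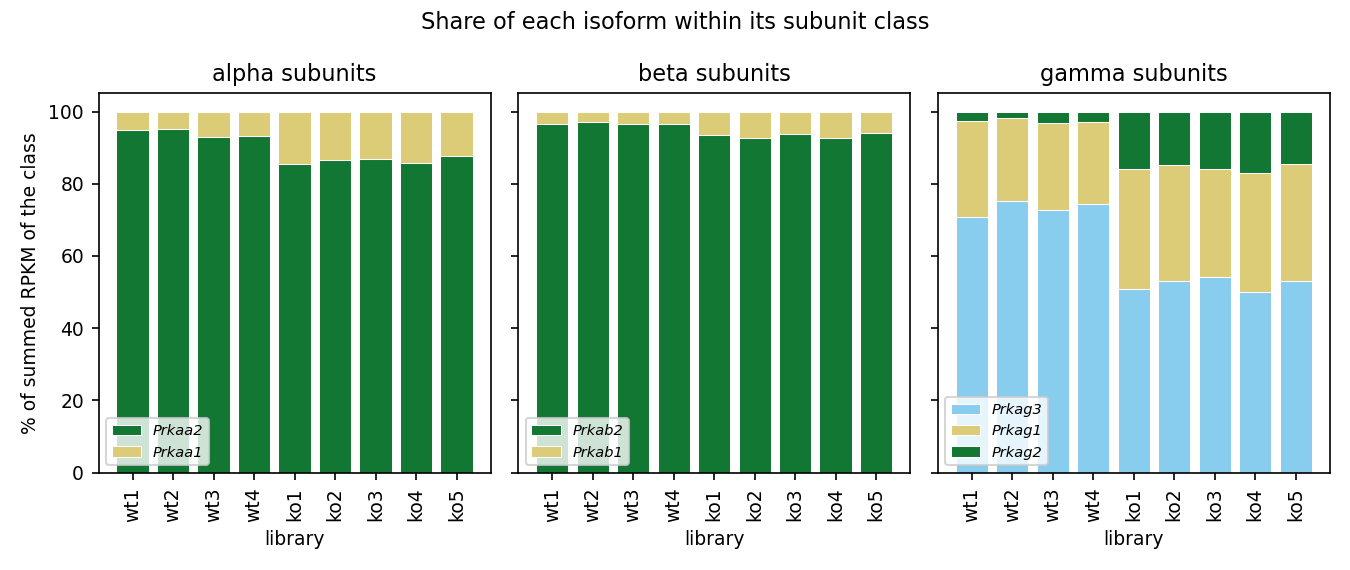
Share of each isoform in the summed RPKM of its subunit class, in percent, 1 stacked bar per library. Prkag2 takes 14.5% to 17.1% of the gamma sum in the knock-out libraries and 1.92% to 3.13% in the wild-type libraries, while Prkaa2 and Prkab2 lead their classes in every library.

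Prkag2 had 3 transcript lines in the table and the other 7 genes had 1 each. The 2 lines from the inner start, whose promoter is printed first above, share most of their sequence, so the split of reads between them is uncertain and they were summed. They stood at 11.8, 11.0, 12.0, 11.4 and 10.1 RPKM in ko1 to ko5 and at 1.73, 1.38, 2.06 and 1.95 RPKM in wt1 to wt4. The line from the outer start was low in every library, at 0.455 to 0.516 RPKM in the knock-out and 0.148 to 0.325 RPKM in the wild type. The lines of both starts were thus higher in all knock-out libraries, and the inner-start lines carried most of the gene's level in both genotypes. No source used here tells how reads were divided among the 3 lines, so their levels may not measure the use of a start.

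The outer-start line supplied 4.18% ± 0.444 of the gene's RPKM in knock-out libraries (3.71% to 4.84%) and 11.9% ± 2.67 in wild-type libraries (7.90% to 13.6%), with no overlap. Fitted line by line, an analysis chosen after the values were seen, the 2 inner-start lines of Prkag2 had log2 differences of 2.40 (SE 0.23, limma adjusted p = 2.0e-05) and 2.70 (SE 0.23, adjusted p = 7.3e-06). The outer-start line lay below the filter of 0.5 RPKM; without a filter it was at 0.81 (SE 0.17, limma adjusted p = 0.0077), where the pseudocount of 0.1 makes up a large part of the value. Another start that RefSeq lists between these was not used here.

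**Figure D3:**
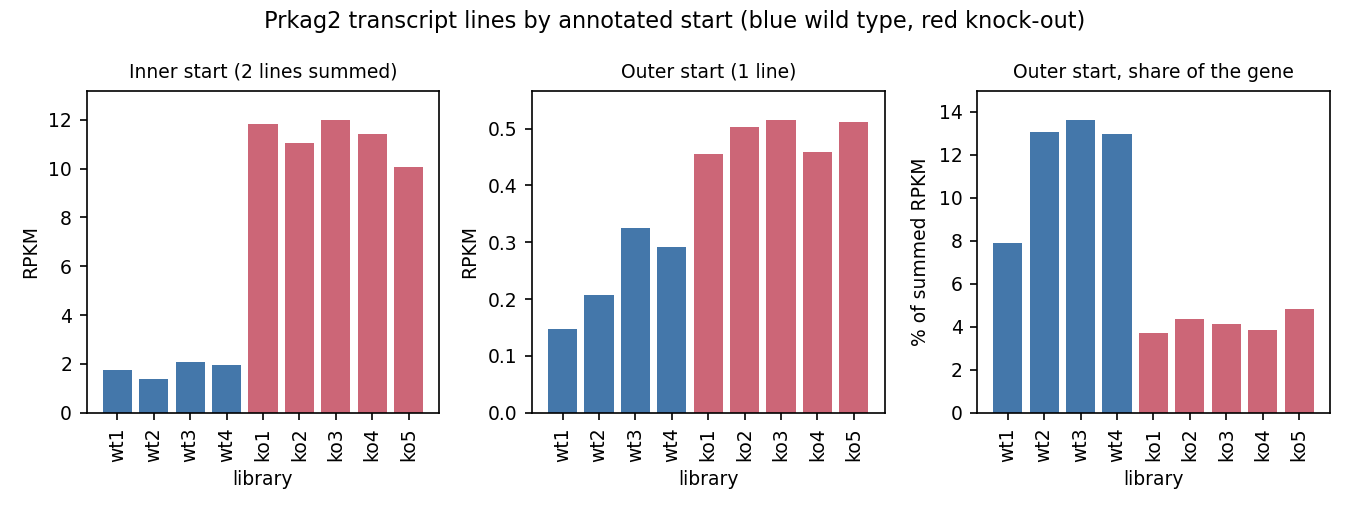
Prkag2 lines by annotated start in each library, with wild type in blue and knock-out in red. Shown are the RPKM of the 2 inner-start lines summed (left) and the RPKM of the outer-start line (middle). The right panel gives the share of the outer-start line in the gene's RPKM, in percent. The left and middle axes differ in scale, since the outer-start line stays at or below 0.516 RPKM.

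Stk11 encodes LKB1, which phosphorylates alpha. It was at 36.4, 39.6, 33.0, 35.3 and 33.8 RPKM in ko1 to ko5 and at 41.1, 39.1, 36.2 and 33.1 RPKM in wt1 to wt4. The groups overlapped over most of their range. The means were 35.6 ± 2.59 (SD, n = 5) and 37.4 ± 3.48 (SD, n = 4), a log2 difference of -0.07 whose 95% interval ran from -0.23 to 0.09 (SE 0.07, limma adjusted p = 0.47). The sign of this difference depends on the wild-type libraries: Stk11 was at 0.04 without wt1 and wt2 and at -0.17 without wt3 and wt4, and neither passed the test. With quantile normalization Stk11 was past the threshold at -0.23 (adjusted p = 0.015).

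By level, the order in the wild type was Prkab2, Prkag3, Prkaa2, Stk11, Prkag1, Prkab1, Prkaa1 and Prkag2. In this order the ranges of Prkaa2 and Stk11, of Prkab1 and Prkaa1, and of Prkaa1 and Prkag2 overlapped, and the other neighbours were apart. In the knock-out the order was Prkab2, Prkag3, Stk11, Prkaa2, Prkag1, Prkag2, Prkaa1 and Prkab1, with overlap between Prkag3 and Stk11 and between Stk11 and Prkaa2. Prkag2 thus went from the lowest place to the sixth, and lay apart from both neighbours there.

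The scaling of the libraries bears on the small differences. RPKM totals were higher in all knock-out libraries, at 349239 to 374056 against 315337 to 327517, and the median gene was 0.12 higher on the log2 scale. With each library centred on its median, 25.1% of genes were called higher and 25.0% lower, in place of 37.0% and 14.8%. Of the 8 genes 3 were then called higher and 3 lower, with Prkab1 no longer called. Relative to the median gene, the log2 differences were 2.37 for Prkag2, 0.89 for Prkaa1, 0.26 for Prkag1, -0.41 for Prkaa2, -0.65 for Prkag3 and -0.88 for Prkab2.

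**Figure D4:**
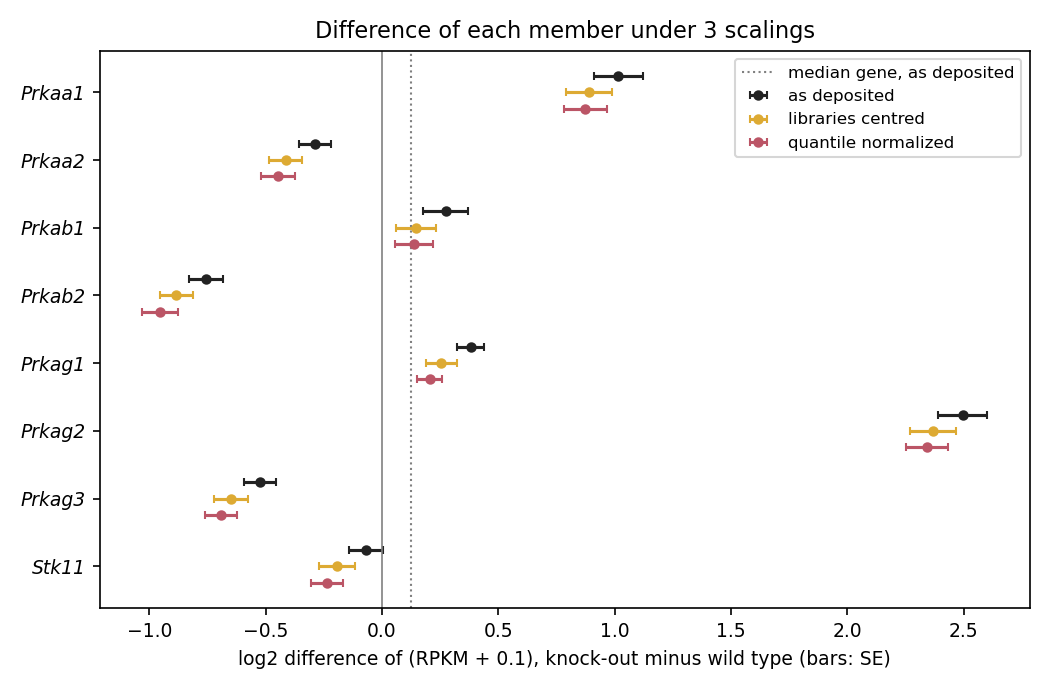
Log2 difference of (RPKM + 0.1), knock-out minus wild type, for each gene under 3 scalings, with bars for the SE and a dotted line at the median gene of 0.12. All genes keep their direction under these scalings, and the difference of Stk11 lies between -0.23 and -0.07.

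Other cell types and fibre types of the muscle also differed between the groups, and in bulk RNA fewer cells of a type and less RNA per cell cannot be told apart. All 8 slow-fibre markers rose, where 37.0% of all genes tested rose and 14.8% fell. Led in level by the myosin light chains Myl2 and Myl3, they summed to 199 to 473 RPKM in the knock-out and 62.1 to 208 RPKM in the wild type. These sums overlapped in ko1 (199) and wt1 (208), and their part in the AMPK differences was not tested. Of 10 fast-fibre markers 1 rose and 1 fell, and Tnnt3 and Myh4, the highest of them, did not pass the test.

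Of 12 macrophage markers 10 rose and none fell, where 37.0% of all genes tested rose and 14.8% fell. Their summed level was 77.4 to 131 RPKM in the knock-out and 31.6 to 42.5 RPKM in the wild type, led by Lyz2 and C1qb. Among those that rose, Trem2, Mpeg1 and Adgre1, named after their values were seen, had wild-type means of 0.194, 0.382 and 0.368 RPKM. They passed the filter of 0.5 RPKM on the mean only through the knock-out, so the filter favours such rises in the count. Of 5 red cell genes tested all fell, at 138 to 225 against 266 to 291 RPKM, led by Hba-a1 and Hbb-b2. Neither sum overlapped between the genotypes, and their part in the AMPK differences was not tested. Of 10 endothelial markers 7 fell, Cdh5 among them, and Pecam1, the highest, did not pass the test. Their sum of 27.5 to 48.7 RPKM overlapped the wild-type range of 39.5 to 65.2 RPKM, with ko2 above wt1 and wt2, and its part was not tested either.

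Fibroblast markers were at 292 to 390 against 190 to 281 RPKM in sum, 3 of 8 higher, Dcn among them, and Col3a1 did not pass the test. This count is near the share over all genes tested, of which 37.0% rose and 14.8% fell. Adipocyte markers were at 185 to 294 against 194 to 323 RPKM, 3 of 7 lower, while Fabp4 and Cfd, the highest, did not pass. Smooth muscle and pericyte markers, led by Rgs5 (lower) and Tagln (not past the test), were at 43.4 to 91.2 against 54.4 to 81.4 RPKM, 1 of 6 higher and 1 lower. The higher one, Cspg4, named after its values were seen, was at 2.49 against 0.622 RPKM. Schwann cell markers, led by Pmp22 and Mbp, were at 22.1 to 51.3 against 20.6 to 52.0 RPKM, with none of 5 past the test. Lymphocyte markers were low, at 1.6 to 2.3 against 0.272 to 1.24 RPKM, with Cd3e alone tested and higher. Cd3e was at 1.31 against 0.409 RPKM and passed the filter of 0.5 RPKM on the mean only through the knock-out. The part of these cell types in the AMPK differences was not tested, and no marker of any list was at 0 in all 9 libraries.

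The other genes of the pathway were read from lists of activators, targets and nucleotide enzymes, each set against 4081 of 11032 genes higher, 1632 lower and a median of 0.12 over all genes tested. The first list held the partners of LKB1 and the other kinases and phosphatases of AMPK. Of its 9 genes tested 1 rose and 2 fell (1 and 5 with the libraries centred), with a median log2 difference of -0.09. Cab39, the MO25 scaffold that holds LKB1 in its active complex, fell from 57.8 ± 3.85 to 36.3 ± 1.97 RPKM (log2 difference -0.67, limma adjusted p = 3.5e-06). The knock-out values of 33.8 to 38.5 RPKM all lay below the wild-type values of 53.3 to 61.7 RPKM. Ppm1a, a phosphatase that removes the activating phosphate, fell from 54.9 to 45.9 RPKM, a call lost with the length trend removed (-0.11, adjusted p = 0.056). Tab1, a partner of the kinase TAK1, rose from 3.86 to 5.16 RPKM, a call lost without wt1 and wt2 (0.26, adjusted p = 0.11). Stradb, the pseudokinase partner of LKB1, stood at 29.9 against 31.9 RPKM and did not pass (-0.09, adjusted p = 0.11), but it did with centring (-0.22, adjusted p = 0.0015).

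Other kinases that LKB1 activates, relatives of AMPK alpha, had 4 of 9 tested genes lower and none higher (6 and 0 with centring), with a median of -0.19. Those with the smallest p-values were Mark1 at 0.579 against 1.84 RPKM (log2 difference -1.54), Sik2 at 1.72 against 2.83 RPKM (-0.70), Nuak1 at 2.16 against 3.11 RPKM (-0.51) and Mark3 at 9.65 against 11.5 RPKM (-0.24). The call of Mark3 was lost with the main transcript alone (-0.18, adjusted p = 0.068). Mark1 and Sik2 were low in both genotypes, so their differences depend on the pseudocount, and that of Mark1 was -0.85 with a pseudocount of 1.

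Proteins that bind AMPK or tether it at the lysosome had 4 of 12 genes higher and 2 lower (3 and 2 with centring), with a median of 0.16. The 4 higher ones were among the 5 subunits of Ragulator, a scaffold on the lysosomal membrane: Lamtor1 at 44.0 ± 1.84 against 32.6 ± 1.08 RPKM (log2 difference 0.43), Lamtor2 at 43.1 ± 3.92 against 28.8 ± 1.36 RPKM (0.58) and Lamtor4 at 26.2 ± 1.83 against 19.0 ± 1.86 RPKM (0.47) and, outside the rule for named genes, Lamtor5 (Hbxip in the table) at 19.6 ± 1.19 against 16.5 ± 0.304 RPKM (0.25). For each of these 4 the knock-out values lay all above the wild-type values, as they did for 30.9% of all genes tested. The remaining subunit, Lamtor3, also named after its values were seen, was at 11.2 ± 1.29 against 10.1 ± 0.693 RPKM and did not pass (0.14, limma adjusted p = 0.19). The call of Lamtor5 was lost with centring (0.12, adjusted p = 0.12), quantile normalization (0.09) or the length trend removed (0.08). Fnip1, a partner of folliculin that binds AMPK, fell from 13.5 ± 0.894 to 10.0 ± 0.895 RPKM (log2 difference -0.43, limma adjusted p = 4.2e-04).

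Enzymes that set the balance of adenine nucleotides, the signal AMPK reads, had 6 of 18 tested genes higher and 4 lower (3 and 7 with centring; 3 were called higher without wt2 and also 3 without wt4), with a median of 0.07. Nt5c1a, the cytosolic nucleotidase that turns AMP into adenosine, fell from 9.83 ± 0.702 to 4.12 ± 0.602 RPKM (log2 difference -1.24, limma adjusted p = 1.9e-06). Ampd3, an AMP deaminase, rose from 1.77 ± 0.489 to 4.90 ± 0.592 RPKM (1.45, adjusted p = 2.5e-05). For both genes the groups did not overlap, as for 42.4% of all genes tested. Ampd1, the far more abundant AMP deaminase of muscle, named after its values were seen, fell from 383 ± 83.6 to 284 ± 30.6 RPKM (-0.42, limma adjusted p = 0.020), with groups that overlapped. The call of Ampd1 was lost without a filter (adjusted p = 0.056), without wt2 (-0.29, 0.054) and without wt1 and wt2 (-0.20, 0.19). Hprt, which salvages purine bases, was higher (0.40) and Ak4, a mitochondrial adenylate kinase, was lower at 0.537 against 0.951 RPKM (-0.72). At this low level the difference of Ak4 depends on the pseudocount and was -0.34 with a pseudocount of 1.

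Targets that AMPK phosphorylates in metabolism had 1 of 13 tested genes higher and 3 lower (1 and 6 with centring), with a median of -0.06. Srebf1, a transcription factor of lipid synthesis, fell from 13.1 ± 0.239 to 4.42 ± 0.540 RPKM (log2 difference -1.55, limma adjusted p = 6.3e-08). Tbc1d1, which restrains the traffic of the glucose transporter GLUT4, rose from 5.39 ± 1.00 to 8.85 ± 0.813 RPKM (0.72, adjusted p = 2.6e-04). Gfpt1, the first enzyme of the hexosamine pathway, fell from 7.32 to 5.11 RPKM (-0.51). Acacb, the acetyl-CoA carboxylase of muscle, was at 28.3 against 32.3 RPKM (-0.20, adjusted p = 0.038), and its call was lost in 10 of 20 alternatives, among them those without ko1, ko3, ko5, wt1 or wt3 (adjusted p from 0.059 to 0.11).

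Targets in growth, autophagy and transcription had 6 of 14 genes higher and 3 lower, but 1 and 4 with centring, with a median of 0.16. Ulk1, which starts autophagy, fell from 14.5 to 9.20 RPKM (log2 difference -0.65, limma adjusted p = 4.2e-06). Hdac4, a class IIa histone deacetylase, rose from 3.36 ± 0.275 to 4.72 ± 0.264 RPKM (0.48, adjusted p = 1.9e-04). Becn1 of the autophagy lipid kinase and Mff, a receptor for mitochondrial fission, were higher by 0.22 and 0.22, and with centring neither Becn1 (0.10) nor Mff (0.09) was called.

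Transcripts that rise when AMPK is activated in muscle were for the most part not past the test: 1 of 10 rose and 1 fell (0 and 2 with centring), with a median of -0.01. Ppargc1a, the coactivator PGC-1alpha of mitochondrial biogenesis, fell from 6.06 ± 0.262 to 4.68 ± 0.649 RPKM (log2 difference -0.38, limma adjusted p = 0.0055), a call lost with the main transcript alone (-0.33, adjusted p = 0.061). Cd36, a fatty acid transporter, rose from 63.8 ± 10.5 to 80.7 ± 6.89 RPKM (0.35, adjusted p = 0.016), but was not called with centring (0.22, adjusted p = 0.092). Pdk4, an inhibitor of pyruvate dehydrogenase, was at 193 ± 48.4 against 160 ± 50.7 RPKM and did not pass (adjusted p = 0.33). Slc2a4, the gene of GLUT4, was at 133 ± 7.34 against 127 ± 7.86 RPKM and did not pass (0.07, adjusted p = 0.36), and its sign turned with centring (-0.06).

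**Figure D5:**
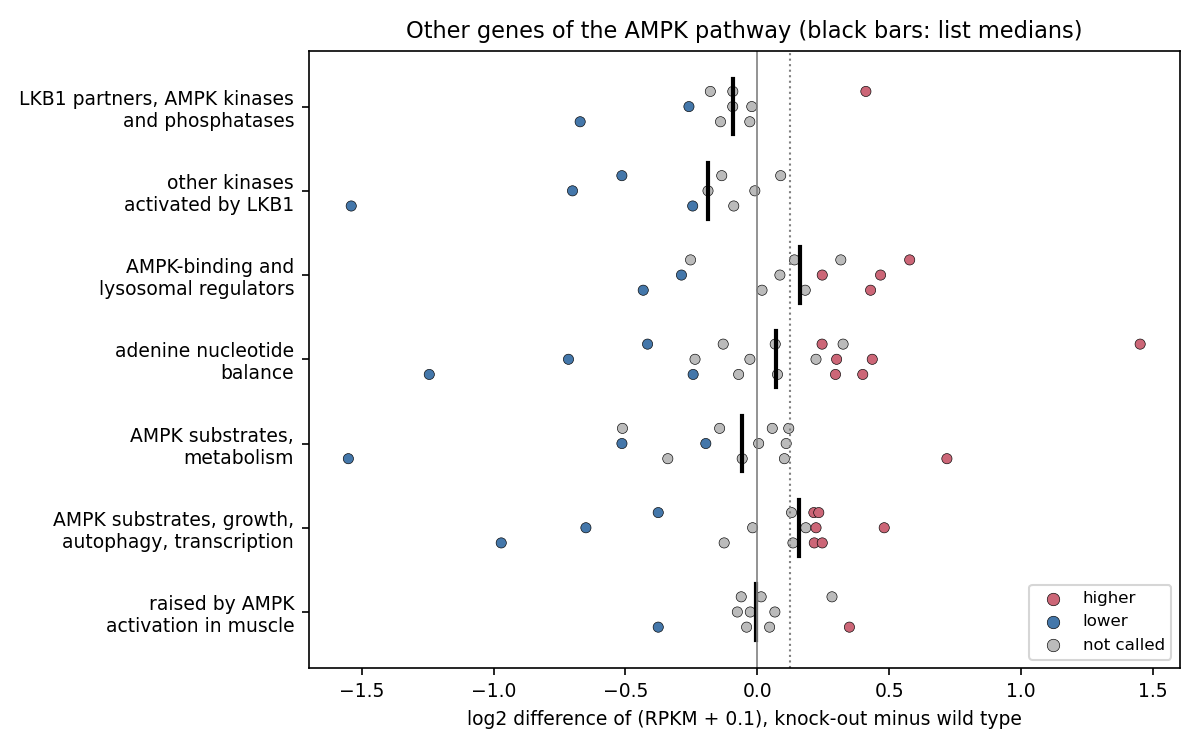
Log2 difference of (RPKM + 0.1), knock-out minus wild type, of each tested gene in 7 lists of the AMPK pathway, with red for higher, blue for lower and grey for not past the test. Black bars are list medians and the dotted line is the median of all genes tested at 0.12; the medians lie between -0.19 and 0.16.

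For the 4 AMPK genes with a called log2 difference of at least 0.5, the genes of most like profile over the 9 libraries were sought by the mean absolute distance of log2 values, each gene centred on its own mean. Since all profiles share the same libraries and the same split by genotype, a small distance shows foremost a like size of the genotype difference, and it is given as a description. For Prkag2 they were Slc25a24, a mitochondrial carrier of ATP (distance 0.10), Fyb, an adaptor protein of leukocytes (0.12), and Chrna1, the alpha subunit of the muscle acetylcholine receptor (0.13), where the median over all genes was 1.17. For Prkaa1 they were Ctsc, a lysosomal protease (0.027), Stbd1, a glycogen-binding protein (0.040), and Pak1, a protein kinase (0.068), where the median was 0.45. For Prkab2 they were Adrbk2, a kinase of G protein-coupled receptors (0.059), Pde7b, a cyclic AMP phosphodiesterase (0.065), and Ppat, of purine synthesis (0.066), with a median of 0.44. For Prkag3 they were Mapk9, the kinase JNK2 (0.052), Filip1l (0.053) and Gpd2, the mitochondrial glycerol-3-phosphate dehydrogenase (0.055), with a median of 0.34. With mean levels of 1.18 (knock-out) against 0.133 RPKM (wild type), Fyb met the filter of 0.5 RPKM only because of its knock-out values. Its wild-type level lay near the pseudocount of 0.1, so its distance to Prkag2 depends on that pseudocount.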

How the data were processed

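The authors deposited 1 table of RPKM values with a line for each RefSeq transcript and a column for each library. Per the submitters' processing notes, TopHat 1.3.2, Bowtie 0.12.7.0 and Partek 6.6 were used with build mm9. No source used here gives their roles or the treatment of strand, so reads of antisense genes cannot be told apart. Trizol extraction and Illumina TruSeq libraries of total RNA were used, per the labels' protocols.

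RPKM of 23665 transcripts was summed to 18062 genes by symbol; 37 symbols had been turned into dates and 36 were restored by accession. The 178 genes of the pathway and marker lists were all found, 6 of them by accession. Depth was estimated from the steps of low values: among values of up to 5 reads, 70.4% to 74.2% fell within 0.1 of a whole read, where chance gives 20%. The 8 genes rested on 140 to 32559 estimated reads per library. No 2 replicates agreed within sampling noise, by a chi-square over genes of 40 to 2000 estimated reads.

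Genes with a mean of at least 0.5 RPKM (11032) were compared between 5 knock-out and 4 wild-type libraries with limma 3.58.1 (R 4.3.3; trend, two-sided) on log2(RPKM + 0.1), with a threshold of 0.05 on Benjamini-Hochberg adjusted p. The pseudocount understates changes of low genes. On simulated data of 11032 genes, of which 200 were changed, log2 changes of 0.5, 1 and 2 were recovered for 73.1%, 92.5% and 100% of changed genes. There 8 unchanged genes were called. In the real data 51.8% of genes were called and the median gene was shifted, so these rates need not carry over. Shares, sums and distances had no test. Python 3.11.15, pandas 2.3.3, numpy 2.4.6, scipy 1.17.1 and matplotlib 3.10.9 were used.

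From each pathway list the up to 4 genes of smallest p were named, from each marker list the up to 2 of highest level, and for each AMPK gene called with a difference of at least 0.5 the 3 most like in profile. Genes and lists were chosen with earlier results of these data known. Promoters came from RefSeq (GRCm38.p6), and no other coordinates are given because the table uses another build. Alternatives were other pseudocounts (1 and 0.01), filters (none, mean RPKM of 2), centring, quantile normalization, removal of a length trend (98.2% of tested genes had a length), limma without trend, the main transcript alone, each library left out, and leaving out wt1 with wt2, or wt3 with wt4.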

Additional observations from a re-analysis of the deposited data

Results flagged for a closer look

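Of 50 groups of 4 or 5 values checked for a library far from the others, 4 had one, where chance gives about 1 in 20. All 4 were in the wild type. The share of Prkab1 in the beta sum was 2.99% in wt2 and 3.45% to 3.51% in the other wild-type libraries, and the same library stood apart in the complement of that value, with Prkab2 at 97.0% in wt2 and 96.5% to 96.5% in the others. The outer-start line of Prkag2 supplied 7.90% of the gene's RPKM in wt1 and 13.0% to 13.6% in wt2 to wt4. One of the inner-start lines of Prkag2 was at 0.456 RPKM in wt1 and at 0.902 to 0.975 RPKM in wt2 to wt4. The split of reads among the Prkag2 lines is uncertain. In none of these cases did the wild-type library reach the knock-out range.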

How the results depend on the processing

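Prkaa1, Prkaa2, Prkab2, Prkag1, Prkag2, Prkag3 and Gaa kept their direction and their call in all 20 alternatives, and so did the line-by-line fits of Prkag2, which were chosen after seeing the data. Prkab1 lost its call without a filter (0.27, adjusted p = 0.062), with centring (0.15), with quantile normalization (0.14), with the length trend removed (0.23) and without wt1 and wt2 (0.12); leaving out single libraries gave 0.20 to 0.35. Stk11 passed the threshold with quantile normalization (-0.23), turned sign without wt1 and wt2 (0.039) and ran from -0.12 to -0.02 with single libraries left out. Slc2a4 turned sign with centring (-0.060) and with quantile normalization (-0.16), and Lamtor3 with quantile normalization (-0.0029). Genes called higher numbered 2644 with quantile normalization, and genes called lower 2758 with centring and 3056 with quantile normalization; without single libraries they numbered 3570 to 4106 and 1406 to 1596. With the main transcript alone, the knock-out share of the gamma sum less the wild-type share was 10.1 percentage points for Prkag1, 8.06 for Prkag2 and -18.2 for Prkag3, against 8.07, 13.0 and -21.1 with all lines. The cause of these changes was not tested, apart from the lines left out in the last. No paired analysis was possible because the wild-type columns cannot be tied to numbered samples. Depth limits Prkab1 and wild-type Prkag2 most, with counting errors of up to 8.19% and 8.45% at the fewest reads, and the number of libraries limits differences near 0.1 on the log2 scale.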
